A study of Mus musculus with 2 samples.

Results

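Cholesterol and fatty acid synthesis genes, most of them known targets of the SREBP transcription factors, were compared between activated mouse CD4+ T cells cultured without and with the cytokine IL-27. The members were fixed by name as 36 genes. A gene was counted as measured when at least 1 probe set, a group of short probes on the array, carried its symbol and no other in the platform annotation. By that rule 29 of the 36 genes were measured, through 47 probe sets, out of 11807 genes on the arrays. They comprised 16 of 19 enzymes of the sterol pathway, 9 of 10 enzymes of fatty acid synthesis, desaturation and elongation, and 4 of 7 genes of SREBP control, sterol transport and glycerolipid synthesis. Acat2, Hmgcs1, Pmvk, Scd2, Srebf1, Insig1 and Abca1 were not measured on the arrays by that rule.

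The study used 2 microarrays, 1 for cells left untreated and 1 for cells given recombinant murine IL-27 at 25 ng/ml. Both cultures began as naive CD4+ T cells from lymphoid organs (spleen, lymph nodes) of C57BL/6J females and were stimulated for 60 h with plate-bound antibodies against CD3 and CD28, and the labels name no other allele or agent. The stated purpose was a screen for transcription factors induced by IL-27. With 1 array per group there was no replicate, so no test was run, no error between cultures can be given, and an effect of the cytokine and variation between cultures cannot be told apart. Neither can a change in RNA per cell and a change in the mix of cells.

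Animal cells build cholesterol from acetyl-CoA through mevalonate, isoprenoids, squalene and lanosterol, and fatty acids by way of acetyl-CoA carboxylase and fatty acid synthase. When sterols in the endoplasmic reticulum run low, the escort protein Scap carries SREBP to the Golgi, where proteases release its transcription factor domain, while Insig proteins hold the complex back when sterols are plentiful. SREBP2 mainly drives sterol genes and SREBP1 mainly fatty acid genes, and T cells that are activated to divide raise both programmes to make membrane.

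Values are deposited RMA intensities, and a difference is the log2 intensity on the IL-27-labelled array minus that on the untreated one, for the brightest probe set of each gene. A gene counted as above background when at least 1 array exceeded an intensity of 21.1, which was the 95th percentile of 38 genes of other tissues, and 7104 genes did. The median difference over these genes was 0.01 and the middle 50% lay between -0.21 and 0.22. Agreement among probe sets of the same gene gave the only internal measure of error, with a pooled SD of 0.22 over 2361 genes, which covers probe error alone. Directions follow the labels. Socs3, a feedback inhibitor that IL-27 is known to induce through STAT3, was at an intensity of 1122 on the untreated array and at 186 on the IL-27-labelled one, opposite to that known direction. Whether the 2 labels were exchanged was not tested, and an exchange would turn every direction given here. Of 9 measured CD4+ T cell genes, all were above background on both arrays, 7 were lower with the IL-27 label and 2 higher, and the differences ran from -0.69 to 0.25 with a median of -0.24. Of 37 measured markers of other cell types, 11 were above background, among them the NK cell receptor genes Klrd1 (intensities 114 and 16.4) and Klrk1 (68.2 and 14.7) and the class II gene H2-Ab1 (313 and 81.6). All 3 were lower with the IL-27 label, while Cd74 (58.4 and 172) and H2-Eb1 (65.5 and 115), also of the class II pathway, were higher. In the NK list, 3 of 6 measured genes were above background, with summed intensities of 251 and 82.1, and the defining genes Ncr1 and Klrb1c were below it on both arrays. In the dendritic cell list, 3 of 6 were above it, 2 higher and 1 lower, with a median difference of 0.81. The summed intensities of that list, to which H2-Ab1 gave the most on the untreated array, were 478 and 404, and Itgax, Flt3 and Xcr1 were below it. The CD8 gene Cd8b1 (119 and 176) was higher with the IL-27 label, and Cd8a was below background on both arrays. Of 7 measured macrophage genes 2 were above background, both lower, with Cd68 at 54.9 and 27.5. The part of these markers in the lipid gene differences was not tested.

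With the IL-27 label the sterol enzyme genes were all on the higher side, by small amounts, and the fatty acid enzyme genes were spread around no difference. Of the 28 members above background, 21 were higher by any amount, against 51.9% of all genes, and 6 were lower, against 47.8%. No member reached a 2-fold difference in either direction, where 1.46% of all genes were higher by 2-fold or more and 2.67% lower. At a threshold of 1.5-fold, 5 of the 28 members were higher, against 5.1% of all genes, and 0 of the 28 were lower, against 7.16%. All 5 were among the 16 genes that encode enzymes of the sterol pathway. The 16 sterol enzyme genes had a median difference of 0.30 with a range of 0.05 to 0.99, and the 8 fatty acid enzyme genes above background had a median of 0.06 with a range of -0.08 to 0.51. The medians were thus 0.24 apart.

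**Figure D1:**
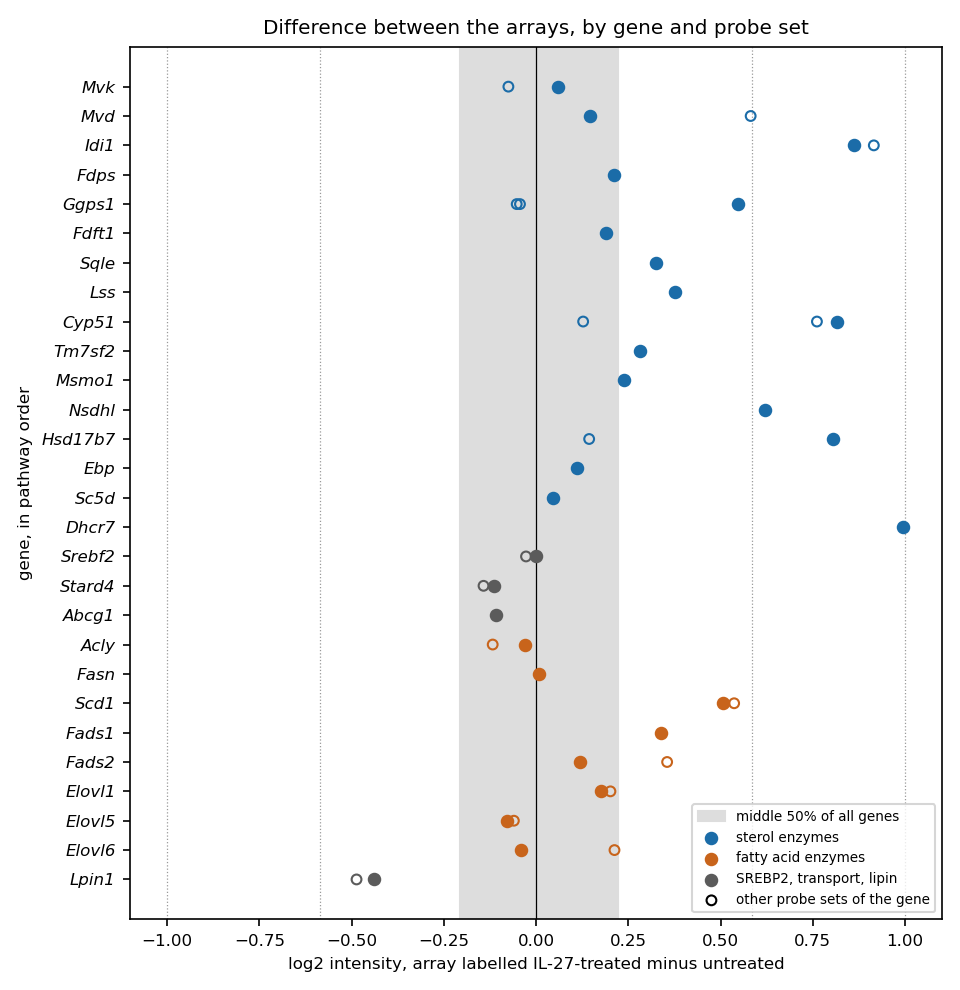
Log2 difference between the array labelled IL-27-treated and the untreated array for the 28 members above background, in pathway order. Filled points are the brightest probe set of a gene, open points its other probe sets above background, the grey band the middle 50% of all genes, and dotted lines mark 1.5-fold and 2-fold. Blue sterol enzyme genes all lie right of 0 by their brightest probe set, from Sc5d (0.05) to Dhcr7 (0.99).

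The upstream part of the pathway makes isoprenoid diphosphates, and all 5 of its measured genes were on the higher side. Their median was 0.21. Mvk, which encodes mevalonate kinase and was the first enzyme measured, had intensities of 113 and 118 on the untreated and the IL-27-labelled array, and its 2 probe sets differed in sign, at 0.06 and -0.08. Mvd, the decarboxylase that yields isopentenyl diphosphate, had intensities of 318 and 352, a difference of 0.15, whereas its dimmer probe set gave 182 and 272, a difference of 0.58. The brighter Mvd probe set is of a type that can match several transcripts.

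Idi1, which interconverts the building blocks of all isoprenoids, stood apart from the other genes of this segment. Its intensity was 694 on the untreated array and 1260.2 on the other, a 1.82-fold difference, and its second probe set, at 273 and 515, differed by 0.92 on the log2 scale against 0.86 for the first. Of all genes above background, 98.0% had a smaller value than that of Idi1. Fdps, which makes farnesyl diphosphate, had intensities of 2605 and 3016, or 0.21 on the log2 scale. Ggps1 makes geranylgeranyl diphosphate for protein prenylation, on a branch that leaves the sterol route. It had intensities of 77.3 and 113 by its brightest probe set, a difference of 0.55, but its other 2 probe sets gave -0.05 and -0.04, so its direction rests on 1 probe set.

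The 11 genes of the segment from squalene to cholesterol were all measured, and all 11 were on the higher side. Their median was 0.32. Fdft1 encodes squalene synthase, the first committed step to sterols, and its intensities of 1138 and 1298 were 0.19 apart. Sqle, the squalene epoxidase that is a control point of the pathway, had 469 and 588, a difference of 0.32. Lss, which closes the ring system to lanosterol, had 79.6 and 103, a difference of 0.38. These differences were close to or above the probe-set SD and below 1.5-fold.

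Cyp51, the lanosterol demethylase, had intensities of 450 and 791, a 1.76-fold difference. Its second probe set (221 and 375) differed by 0.76 on the log2 scale against 0.81 for the brightest, and the dimmest, at 20.2 and 22.1 next to background, by 0.13. Later steps remove the methyl groups at another carbon of the ring and use Msmo1, Nsdhl and Hsd17b7 in turn. Msmo1, the methylsterol monooxygenase, had intensities of 1487 and 1754, a difference of 0.24. Nsdhl, the sterol dehydrogenase, had 574 and 884, a 1.54-fold difference. Hsd17b7, the ketoreductase that completes each round, had 98.2 and 171, a 1.75-fold difference, but its other probe set, at 59.3 and 65.5, gave a log2 difference of 0.14. The 3 genes of this demethylation step thus differed by 0.24, 0.62 and 0.80 on the log2 scale.

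Tm7sf2, a sterol reductase, had intensities of 192 and 233, a difference of 0.28. Ebp, the sterol isomerase, had 458 and 495, a difference of 0.11, and Sc5d, the desaturase that follows it, 669 and 690.4, a difference of 0.05. Both lay within the spread of probe sets.

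Dhcr7, the reductase of the last step to cholesterol, showed the largest difference of the members. Its single probe set had intensities of 268 and 534, a 1.99-fold difference that was just short of 2-fold, and 1.48% of all genes had a larger one. Of the 5 enzymes past 1.5-fold, Cyp51, Nsdhl and Hsd17b7 act close together, Idi1 acts well upstream and Dhcr7 at the end. Neighbours on the route could differ, as Sc5d at 0.05 and Dhcr7 at 0.99 did.

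Just inside the 1.5-fold threshold was Nsdhl at 1.54-fold, and just outside it were Ggps1 at 1.46-fold and Scd1 at 1.42-fold. Of the 16 sterol enzyme genes, 10 differed by more than the probe-set SD, as did 49.8% of all genes above background, and 10 lay above the upper quartile of all genes. Taking every probe set above background, 21 of 24 for sterol enzymes were on the higher side and 7 were at least 1.5-fold higher, against 51.8% and 5.24% of all probe sets. The 3 on the lower side belonged to Mvk and Ggps1. For fatty acid enzymes 9 of 14 probe sets were on the higher side and 0 reached 1.5-fold, with a median of 0.15 against 0.26 for sterol enzymes.

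**Figure D2:**
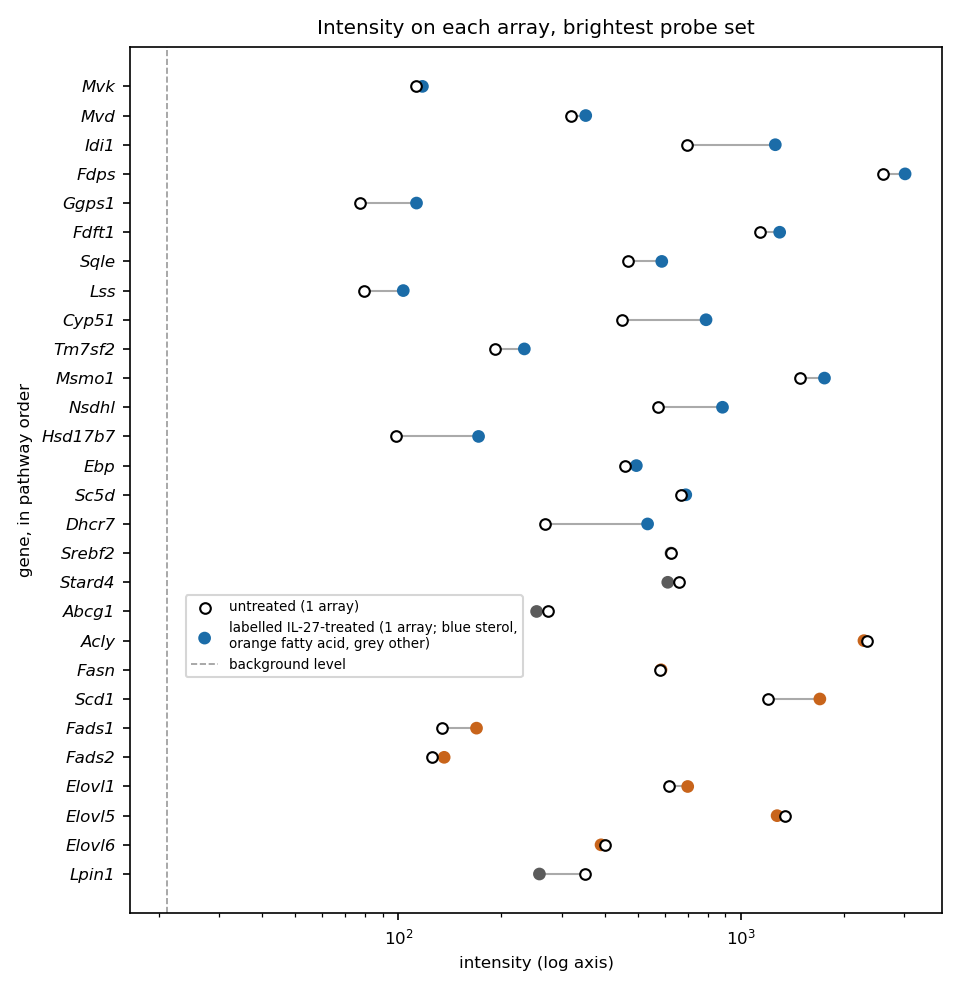
Intensity of the brightest probe set of each member above background on the untreated array (open points) and the array labelled IL-27-treated (filled points), 1 array each, on a log axis. The dashed line is the background level of 21.1. Every gene lies well to the right of it, and the widest gaps are those of Dhcr7, Idi1, Cyp51 and Hsd17b7. Levels of different genes come from different probes and are not comparable with each other.

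Sterol genes are read by SREBP together with NF-Y, a trimeric factor that binds CCAAT boxes, so promoters of the sterol enzyme genes were searched for 3 motifs. The sequences came from RefSeq promoters of build GRCm38.p6, each 250 bases before to 50 bases after an annotated start, and 28 of the 36 members had at least 1. Both strands were searched for the sterol regulatory element core TCACNCCAC, the NF-Y box CCAAT and the E-box CACGTG, which SREBP can also bind. The stretches below belong to the 5 sterol enzyme genes past 1.5-fold, to Mvk and Sc5d, the sterol enzyme genes with the smallest differences, and to Fasn. They are shown so that promoters of genes that differed and genes that hardly did can be set side by side. Each is read 5′ to 3′ along the gene, ends before the start, and has the NF-Y box (CCAAT, or ATTGG on the other strand) and the E-box in capitals. Dhcr7 has 3 annotated windows, and the one with most matches is shown.
Dhcr7, chr7:143830117-143830181, plus strand: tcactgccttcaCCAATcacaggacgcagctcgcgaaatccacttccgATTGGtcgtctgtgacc
Idi1, chr13:8885549-8885605, plus strand: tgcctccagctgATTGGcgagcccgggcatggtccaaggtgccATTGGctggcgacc
Cyp51, chr5:4104710-4104738, minus strand: cgctgtccgccaCCAATctggtcctgaga
Hsd17b7, chr1:169969206-169969382, minus strand: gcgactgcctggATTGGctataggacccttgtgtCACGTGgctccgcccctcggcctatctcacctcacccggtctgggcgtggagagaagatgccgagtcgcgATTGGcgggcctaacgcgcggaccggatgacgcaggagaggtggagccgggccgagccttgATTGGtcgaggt
Nsdhl, chrX:72918400-72918517, plus strand: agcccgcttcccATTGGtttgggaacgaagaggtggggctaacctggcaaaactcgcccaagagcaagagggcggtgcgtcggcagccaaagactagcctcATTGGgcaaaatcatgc
Mvk, chr5:114444084-114444268, plus strand: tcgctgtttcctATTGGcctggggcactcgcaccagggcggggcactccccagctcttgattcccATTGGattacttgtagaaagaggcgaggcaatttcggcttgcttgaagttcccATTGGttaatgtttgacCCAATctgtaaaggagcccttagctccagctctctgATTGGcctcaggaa
Sc5d, chr9:42264308-42264410, minus strand: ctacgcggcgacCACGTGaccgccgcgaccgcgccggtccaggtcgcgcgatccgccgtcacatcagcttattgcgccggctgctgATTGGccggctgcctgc
Fasn, chr11:120824590-120824649, minus strand: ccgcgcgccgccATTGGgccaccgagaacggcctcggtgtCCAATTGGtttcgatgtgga

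The NF-Y box was in the promoters of 15 of the 16 sterol enzyme genes that had a sequence, or 93.8%. It was in 43.9% of the 5850 genes above background with a sequence and in 41.1% of all 27025 genes in the table. These 16 are not the 16 measured genes. They come from all 19 listed, include the unmeasured Acat2, Hmgcs1 and Pmvk, and lack Fdps, Fdft1 and Sqle. Among fatty acid enzyme genes the box was in 4 of 7. The box did not sort the sterol genes by their difference. It was in 5 of 5 promoters of genes past 1.5-fold and in 8 of 8 of those within it. Mvk, at a difference of 0.06, held 5 matches in the stretch shown, and Dhcr7, at 0.99, held 2. In Fasn, 2 of the 3 matches overlap on opposite strands.

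The E-box was in 2 of 5 promoters of sterol enzyme genes past 1.5-fold, Hsd17b7 and another window of Dhcr7, and in 1 of 8 within it, that of Sc5d, against 12.6% of genes above background. The sterol regulatory element core was in 1 of the 16 promoters, that of Hmgcs1, and in 1.42% of genes above background. Hmgcs1 was not measured on the arrays. Among measured sterol enzyme genes the core was in 0 of 5 promoters past 1.5-fold and in 0 of 8 within it. With the shorter letters TCACNCCA, tried after the first search, Msmo1 was added among sterol enzyme genes and Srebf2 among the other members. The shorter letters were in 2 of 16 sterol enzyme promoters, or 12.5%, and in 4.5% of genes above background. These are matches of letters in short windows, and sites outside them or with other letters were not looked for.

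**Figure D3:**
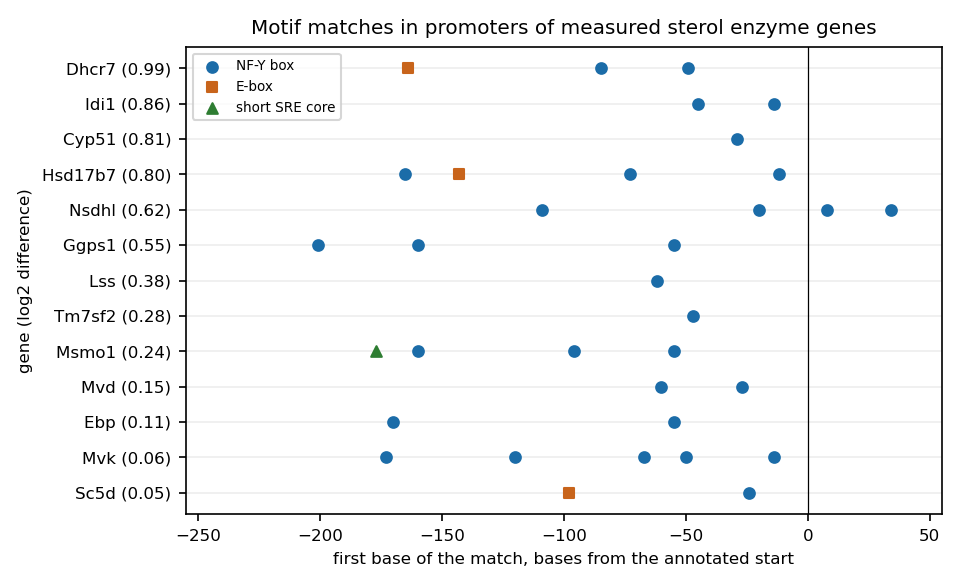
Position of motif matches in the promoters of the 13 measured sterol enzyme genes with a sequence, ordered by log2 difference (in brackets, largest at the top). The horizontal axis is the first base of a match in bases from the annotated start, and windows of Dhcr7 are overlaid. Each of the 13 has at least 1 NF-Y box, from Dhcr7 at 0.99 to Sc5d at 0.05.

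On the route to palmitate, Acly and Fasn, the 2 genes above background, gave nearly equal values on both arrays. Acly, which supplies cytosolic acetyl-CoA to both pathways, had intensities of 2333 and 2287, a difference of -0.03, and its other probe set gave -0.12. Fasn, fatty acid synthase, had 581 and 585, a difference of 0.01. Acaca, acetyl-CoA carboxylase, was below background on both arrays by its only probe set, at 9.71 and 10.5, so no difference was read from it.

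The 3 measured desaturases, which put double bonds into fatty acids, were all on the higher side, and Scd1 and Fads1 had the largest differences of the fatty acid branch. Scd1, which makes oleate and palmitoleate, had intensities of 1198 and 1700.3, a 1.42-fold difference, with probe sets at 0.51 and 0.54. Fads1, a desaturase of polyunsaturated fatty acids, had 134 and 169, a difference of 0.34. Fads2, its partner, had 125 and 136, a difference of 0.12, and 0.36 by its other probe set. Of the 8 fatty acid enzyme genes, Scd1 and Fads1 were the 2 that differed by more than the probe-set SD.

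The elongases gave small values on both sides. Elovl1, which extends saturated very long chains, had intensities of 619 and 699, a difference of 0.18, Elovl5, which extends polyunsaturated chains, 1346 and 1276, a difference of -0.08, and Elovl6, which extends palmitate, 402 and 391, a difference of -0.04. The other probe set of Elovl6 gave 0.21, so its sign was not settled. In all, 6 of the 8 fatty acid enzyme genes lay within the middle 50% of all genes, and 6 of the 16 sterol enzyme genes exceeded the largest fatty acid difference, that of Scd1.

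The remaining 4 members were level or on the lower side. Srebf2, which encodes SREBP2, had the same deposited intensity of 625.2 on both arrays, as did 200 of the 22716 probe sets, and its other probe set differed by -0.03. Its transcript thus showed no difference here, and the processing of the protein was not measured. Stard4, a carrier of cholesterol between membranes and itself an SREBP2 target, had 662 and 612, a difference of -0.11, and -0.14 by its other probe set. Abcg1, a sterol exporter induced by the oxysterol receptor LXR, had 273 and 253, also a difference of -0.11.

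Lpin1, a phosphatidate phosphatase of glycerolipid synthesis that is also listed as an SREBP target, was the member with the largest difference on the lower side. Its intensities were 349.8 on the untreated array and 258 on the other, 1.36-fold lower, with probe sets at -0.44 and -0.49. Of all genes above background, 11.2% had a lower value. It was the only one of these 4 genes to differ by more than the probe-set SD.

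**Figure D4:**
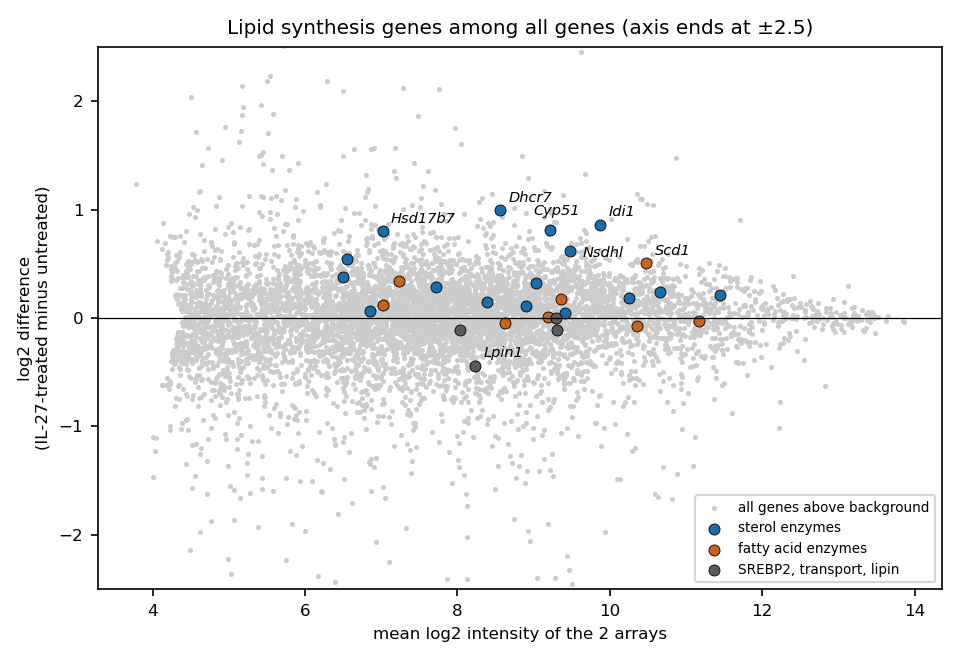
Log2 difference against mean log2 intensity for the 7104 genes above background (grey) and the 28 members (coloured), with 40 genes beyond the ends of the vertical axis. Labelled points mark the 5 sterol enzyme genes past 1.5-fold, Scd1 and Lpin1. The sterol enzyme genes lie above 0 at dim and bright levels alike.

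Spread in such data depends on brightness, and the contrast between the branches was also read within a level. Among the 2368 genes brightest by mean intensity, the median difference of all genes was 0.03. The 9 sterol enzyme genes there had a median of 0.24 and the 6 fatty acid enzyme genes a median of -0.01. Among the 2368 genes of the next level, the medians were 0.28 for 5 sterol enzyme genes and 0.23 for 2 fatty acid enzyme genes, against 0.03 for all genes. The 2 fatty acid genes at this level were the desaturases Fads1 and Fads2.

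Genes that surround the pathway were taken from 2 further lists. The other sterol list holds control, uptake, storage and transport genes with a few enzymes, and of its 15 measured genes 14 were above background. In it, 4 were higher and 10 lower by any amount, with 0 past 1.5-fold in either direction and a median of -0.17. The 4 higher genes, named after their values were seen, were Aacs, Tmem97, Lbr and Nr1h3, at 0.36, 0.18, 0.09 and 0.14, and Nr1h3 was next to background at intensities of 20.2 and 22.2. Aacs activates acetoacetate for lipid synthesis and Lbr is a sterol reductase of the nuclear envelope.

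Osbpl9, an oxysterol-binding protein family member, had the largest difference of this list, with intensities of 778 and 538, a log2 difference of -0.53, and -0.52 by its other probe set. Insig2, which retains SREBP in the endoplasmic reticulum, had 300.1 and 237, a difference of -0.34, with its other probe sets at -0.43 and -0.03. Stard3, a sterol transporter of late endosomes, had 189.9 and 156, a difference of -0.28. The SREBP escort Scap and the protease gene Mbtps1 were at -0.19 and -0.15, also named after their values were seen. Enzymes of sterol synthesis and the genes around them therefore lay on opposite sides of 0 by their medians, at 0.30 and -0.17, where the median of all genes was 0.01.

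The other fatty acid list had 13 of 21 measured genes above background, with 10 higher and 3 lower by any amount, 0 past 1.5-fold, and a median of 0.21. That median lay between 0.06 for the fatty acid enzyme members and 0.30 for the sterol enzyme genes. The gap between the branches was thus narrower with this list on the fatty acid side. The 10 higher genes included the elongation enzyme genes Tecr (0.22) and Hsd17b12 (0.10), named after their values were seen. Acss2, which makes acetyl-CoA from acetate, had intensities of 199 and 278, a difference of 0.48, and 0.21 by its other probe set. Hacd2, a dehydratase of fatty acid elongation, had 650.0 and 831, a difference of 0.35. The 3 lower genes were the phospholipid acyltransferase genes Lpcat3 (506 and 381, a difference of -0.41) and Agpat3 (a difference of -0.30), and Lpin2 (-0.16), a relative of Lpin1 named after its value was seen. A dimmer probe set of Lpin2, at 26.9 and 42.2, gave 0.65, so its sign was not settled. The median of this list depended on the processing. It was 0.06 with the brightest probe set that had no suffix for several transcripts and 0.10 with genes below background kept.

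**Figure D5:**
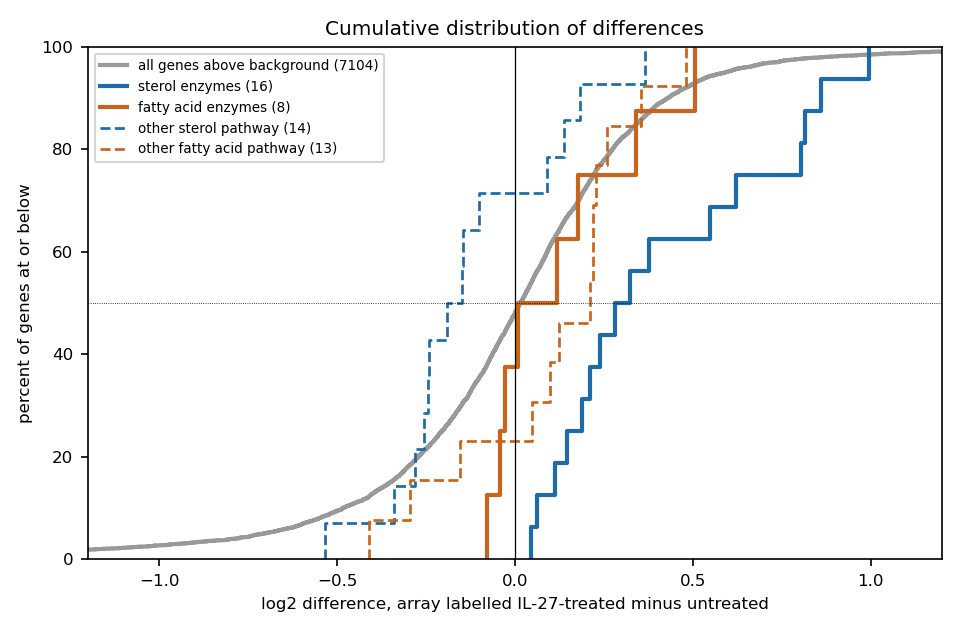
Cumulative distribution of log2 differences for all 7104 genes above background (grey), the 16 sterol and 8 fatty acid enzyme genes (solid), and the 14 and 13 genes of the other sterol and fatty acid lists (dashed). The sterol enzyme curve starts at 0.05 and lies to the right of the others up to its end at 0.99, beyond which 1.48% of all genes lie. The fatty acid enzyme curve crosses 50% close to that of all genes, and the other sterol list lies to the left.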

How the data were processed

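The deposited values are linear intensities, 1 for each probe set on each array, which the authors made with RMA per the submitters' processing notes. For its version and settings, and for a genome build, the sources used here give nothing. RMA draws the distributions of arrays together, so a change in total RNA would not show, and differences of dim probe sets come out too small. Median intensities were 33.3 (untreated) and 32.4. The number of arrays limits precision.

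Of 22716 probe sets, 18003 had 1 gene symbol, 287 several and 4426 none in the platform annotation. Gene identifiers of 17977 matched a RefSeq table of GRCm38.p6, which changed 0 symbols. Intensities were put on the log2 scale with no pseudocount and no further normalization, and a gene was read from its brightest probe set by mean log2 level. Scripts ran in Python 3.11.15 with pandas 2.3.3 and statsmodels 0.14.6 and were tested on simulated data.

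Every measured member is named. Of the other pathway lists, the 8 genes above background with the largest absolute difference are named, and others are marked. Members, lists and thresholds were chosen with earlier results of these data known. Alternatives covered the filter on dim genes, normalization, the probe set of a gene and a pseudocount of 16.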

Additional observations from a re-analysis of the deposited data

How the results depend on the processing

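The medians and counts of the members and the difference of each member were recomputed under 9 alternatives, of which 8 gave a value for Elovl1 and Msmo1. The median of sterol enzyme genes ranged from 0.26 to 0.38, that of fatty acid enzyme genes from 0.01 to 0.14, and the gap between them from 0.17 to 0.37. Subtracting array medians put 1 member, Dhcr7, past 2-fold (1.03), and the mean of probe sets left 3 members at least 1.5-fold higher, with Cyp51 at 0.57 and Hsd17b7 at 0.47. That alternative takes in dimmer probe sets, and it gave 15 of 16 sterol enzyme genes on the higher side, with Mvk at -0.01. Of 28 members, 23 kept their sign in all alternatives that gave a value, and Mvk, Acly, Fasn, Elovl6 and Srebf2, all near 0, did not. No replicate could be left out, and no paired analysis was possible because each group has 1 array. The medians of the other sterol and fatty acid lists ranged from -0.21 to -0.13 and from 0.06 to 0.25, under alternatives chosen after seeing the data. Counting the 250 bases before the start alone left the NF-Y box in 93.8% of sterol enzyme promoters and in 41.4% of those of genes above background. Signal over background limits Acaca.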
